A study of Mus musculus with 23 samples.

Results

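The major urinary protein (Mup) genes form a tandem array on mouse chromosome 4, and 6 of them were followed here through every liver library: Mup1, Mup2, Mup3, Mup7, Mup20 and Mup21. They were picked by gene symbol, with earlier results of these data known, and are 6 of the 24062 genes in the deposited count tables. Liver RNA was selected by polyA capture and sequenced from 23 mice of a mixed B6/129 strain, 1 library per mouse. Mice were knockout (KO) or wild type (WT) for Ehhadh, the peroxisomal L-bifunctional enzyme of fatty acid beta-oxidation, and each genotype received L-AC, an agent that the labels give by that abbreviation only, or saline. The 4 groups were 5 KO mice on L-AC aged 28 to 38 weeks, 5 KO mice on saline aged 31 to 44 weeks, 6 WT mice on L-AC aged 28 to 44 weeks and 7 WT mice on saline aged 29 to 45 weeks. The labels give neither the dose nor the duration of L-AC.

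As background, MUPs are small secreted lipocalins, proteins with a beta-barrel pocket that binds volatile molecules. Mouse liver makes them in large amounts, they pass through the kidney into urine, and there they release pheromones slowly and mark individual identity. Their transcription in liver is known to depend on pulsatile growth hormone acting through the transcription factor STAT5B, and on androgen, glucocorticoid and thyroid hormone, so that males make more than females. The central genes of the array, to which Mup1, Mup2 and Mup7 belong, are nearly identical copies. Mup3, Mup20 and Mup21 lie at one edge of the array and are more divergent. Mup20 encodes darcin, a male pheromone that attracts females, and circulating MUP1 has been linked to glucose and lipid metabolism in mice.

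How far reads can be given to single members follows from their sequences. The coding sequences of Mup1 and Mup2 were identical at 99.4% of aligned bases, those of Mup1 and Mup7 at 98.9% and those of Mup3 and Mup21 at 94.7%, in the transcripts of GENCODE M21 on GRCm38. Mup1 and Mup3 were identical at 82.7%. Of the 100-base windows of each transcript, the length of a read, 87.2% for Mup1, 97.3% for Mup2 and 87.1% for Mup7 occurred unchanged in a transcript of another gene. The share was 2.94% for Mup3 and 4.5% for Mup21, whose shared windows were all with each other, and 38.8% for Mup20, whose shared windows were all in the pseudogene Mup-ps19. The lines that follow show 60 coding bases from the first coding exon of each member, aligned without gaps, with capitals where a member differs from Mup2. In this stretch little separates Mup1, Mup2, Mup7 and Mup20.
Mup1: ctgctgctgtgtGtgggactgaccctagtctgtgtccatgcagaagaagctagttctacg
Mup2: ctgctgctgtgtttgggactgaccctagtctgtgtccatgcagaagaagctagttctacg
Mup7: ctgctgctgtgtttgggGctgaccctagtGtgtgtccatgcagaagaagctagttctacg
Mup20: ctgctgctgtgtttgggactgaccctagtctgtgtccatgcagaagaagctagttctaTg
Mup3: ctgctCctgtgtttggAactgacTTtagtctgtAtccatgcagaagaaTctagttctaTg
Mup21: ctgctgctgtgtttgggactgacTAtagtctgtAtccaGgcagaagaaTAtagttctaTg
These runs lie on the minus strand of GRCm38 at chr4:60501778-60501837 for Mup1, chr4:60139715-60139774 for Mup2, chr4:60070229-60070288 for Mup7, chr4:62053975-62054034 for Mup20, chr4:62087148-62087207 for Mup3 and chr4:62150678-62150737 for Mup21. In this stretch Mup3 and Mup21 each differ from Mup2 at 7 bases, Mup7 at 2 and Mup1 and Mup20 at 1. Over the whole coding sequence Mup20 was identical to Mup2 at only 90.8% of aligned bases.

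The rows of the count tables add a second kind of sharing, since some gene models overlap. On mm10, the same assembly as GRCm38, Mup1 spans chr4:60498013-60501960, Mup7 chr4:60066469-60070475, Mup20 chr4:62050235-62054117, Mup3 chr4:62083476-62087312 and Mup21 chr4:62147832-62150841, all on the minus strand. The Mup2 row is a composite of 21 exon blocks between 60135913 and 61439702, and 2149 of its 3102 exon bases also belong to the rows of Mup10, Mup11, Mup14, Mup15 or Gm2083. Mup7 shares 513 of its 1033 exon bases with Mup15. The other members share none, and none of the 6 shares exon bases with another of the 6, so the counting rule, which gave a read to every gene it overlapped, does not count a read more than once in their sum. A sum over all 22 rows of the array would do so. A read that fits several near-identical copies was counted at its primary alignment, so values of Mup1, Mup2 and Mup7 are uncertain as single genes, and the sum and the divergent members are given beside them.

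Promoter sequence was at hand for 4 of the 6 members, Mup2, Mup3, Mup7 and Mup21, from RefSeq on GRCm38.p6; Mup1 and Mup20 had no entry. Since 5 of the 6 members fell on L-AC in both genotypes, the 120 bases before the annotated start are shown for Mup2, Mup3 and Mup21, with the letters TATATAA in capitals.
Mup2: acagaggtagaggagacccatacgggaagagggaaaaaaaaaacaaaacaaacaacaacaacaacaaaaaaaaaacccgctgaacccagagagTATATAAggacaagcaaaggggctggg
Mup3: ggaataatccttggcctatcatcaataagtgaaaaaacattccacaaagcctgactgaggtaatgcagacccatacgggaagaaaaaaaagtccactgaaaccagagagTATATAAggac
Mup21: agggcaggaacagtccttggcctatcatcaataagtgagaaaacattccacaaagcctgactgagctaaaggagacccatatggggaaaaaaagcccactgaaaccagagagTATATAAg
They lie on the minus strand at chr4:60139857-60139976, chr4:62087318-62087437 and chr4:62150842-62150961, in that order. TATATAA, searched on both strands of the 250 bases before each start, occurred in 3.04% of 32851 promoters. The TATATAA run began 27 bases before the annotated start of Mup2, 11 before that of Mup3 and 8 before that of Mup21. The windows of Mup3 and Mup21 were identical at 92.3% of their aligned bases, and those of Mup2 and Mup3 at 81%. The window of Mup7 begins from a start further upstream and holds no TATATAA; over 116 columns where it aligns with that of Mup2 it was identical at 98.3%. The spaced palindrome TTCNNNGAA, letters that STAT factors are known to bind, occurred in none of the 4 windows and in 7.02% of all promoters. TGTTCT, letters of one arm of a steroid receptor site, occurred once in Mup3 and once in Mup21, as in 16.1% of promoters.

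Libraries held 24521896 to 48095959 counted reads. The 6 members took 1.16 to 3.48% of them and the whole array, with reads on overlapping rows counted more than once, 3.26 to 9.89%. The lowest count of a member in a library was 1591 reads, for Mup21, so counting error was small beside the spread between mice. Levels are given as CPM, a gene's count in 1000000 counts of the library size scaled by TMM. Ehhadh reached 1421 to 2144 CPM in KO L-AC livers, against 10261 to 14652 CPM in WT L-AC livers, and 90.9 to 253 CPM in KO saline livers, against 635 to 1635 CPM in WT saline livers, as the genotype labels have it. The 8 hepatocyte markers fixed as a list were detected in every library. Ddx3y, a gene of the Y chromosome, had 1668 to 3973 reads over the 23 libraries. Xist, which is expressed from the inactive X chromosome of females, had 1 to 58 reads, so all 23 livers read as male.

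A group of 6 libraries stood apart in the array. Their Mup11 row was at 142 to 344 CPM, against 734 to 2577 CPM in the other 17, and their Mup8 row at 11.4 to 36.3 CPM, against 25.5 to 137 CPM. They were replicate 4 of KO saline, replicates 4 and 5 of WT L-AC and replicates 2, 3 and 4 of WT saline; KO L-AC had none. Mup20 was low in all 6, at 245 to 761 CPM, against 590 to 5871 CPM in the others. Mup2 was not low in them, at 5938 to 11614 CPM, against 2654 to 11693 CPM. The cut at 500 CPM was set after the values were seen, and the part of the mixed strain background in this split was not tested. Because these libraries fall unevenly over the groups, results are given with and without them.

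**Figure D1:**
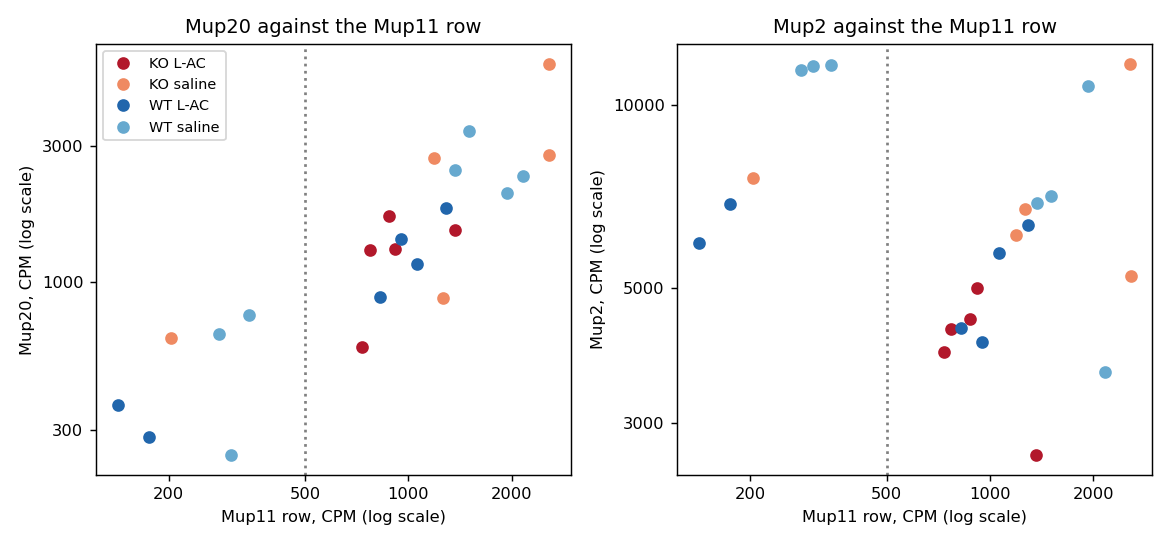
Level of Mup20 (left) and Mup2 (right) against the Mup11 row, each point 1 library, both axes CPM on a log scale, coloured by group. The dotted line at 500 CPM separates the 6 libraries with a low Mup11 row, in which Mup20 does not pass 761 CPM, while Mup2 reaches 11614 CPM.

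Mup transcripts were lower on L-AC than on saline in both genotypes. In KO livers the 6 members summed to 12331, 11578, 14565, 15710 and 13512 CPM on L-AC, against 37431, 21117, 21809, 21105 and 28830 CPM on saline. All 5 KO L-AC livers were below all 5 KO saline livers. The means were 13539 ± 1663 CPM on L-AC and 26058 ± 7142 CPM on saline (SD, n = 5 each), a level of 52% and a log2 ratio of -0.94. In WT livers the sum ran from 13896 to 20216 CPM on L-AC with a mean of 16275 ± 2283 (SD, n = 6), against 16007 to 35359 CPM on saline with a mean of 27191 ± 6478 (SD, n = 7), a level of 59.9% and a log2 ratio of -0.74. The WT groups overlapped through WT saline replicate 1 at 16007 CPM, and all 6 L-AC livers were below the other 6 saline livers. Without the 6 libraries with a low Mup11 row the log2 ratio was -1.01 in KO and -0.61 in WT. No p-value is given for the sum.

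**Figure D2:**
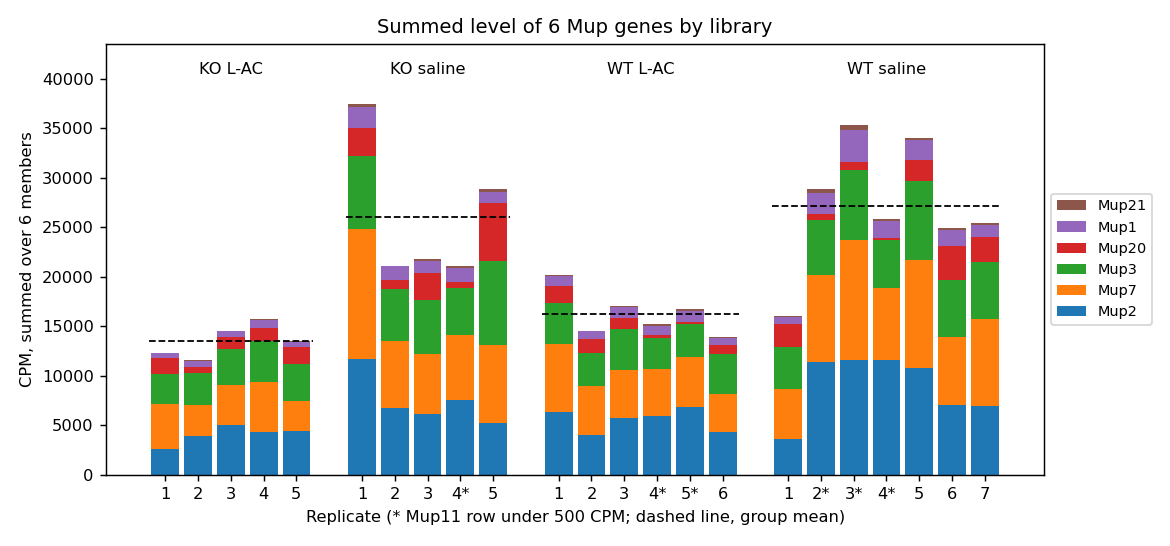
Summed CPM of the 6 members in each library, stacked by member; the dashed lines are group means and an asterisk marks a Mup11 row under 500 CPM. The KO L-AC bars end at 15710 CPM or lower and the KO saline bars at 21105 CPM or higher, and Mup2, Mup7 and Mup3 make up most of each bar.

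Of the 6 members, 5 fell on L-AC in KO livers and the same 5 fell in WT livers, by edgeR's quasi-likelihood test at a Benjamini-Hochberg adjusted p under 0.05; Mup20 did not pass in either. L-AC changed much of the transcriptome, and 23.6% of all 14196 genes tested fell and 25.2% rose in KO, and 26.7% fell and 26.6% rose in WT. The groups did not overlap for 4 members in KO, as for 15.5% of all genes in that direction, and for 1 member in WT, as for 12.1%. The median log2 fold change of the members was -1.02 in KO and -0.77 in WT, beside -0.01 for all genes tested in both. Without the 6 libraries with a low Mup11 row, all 6 members fell in KO, and in WT only Mup3 still passed, with every member at a negative log2 fold change. That fit has 4 WT saline and 4 WT L-AC livers. The shares of all genes above are from the fit of all 23 libraries. The share for the smaller fit is not given, so a general loss of calls cannot be told apart from a change in the members. The 1 KO library it leaves out, KO saline replicate 4, had the lowest Mup20 of its group. The added call of Mup20 in KO is therefore not independent of the cut. Of the 8 hepatocyte markers, 5 fell in KO, and 4 fell and 1, Tat, rose in WT. Their summed level is given in CPM without TMM scaling. It was at 36543 to 56990 CPM in KO L-AC against 59388 to 71087 CPM in KO saline, and at 48373 to 55181 CPM in WT L-AC against 58890 to 66609 CPM in WT saline. In bulk liver RNA, fewer hepatocytes and less RNA per hepatocyte cannot be told apart.

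**Figure D3:**
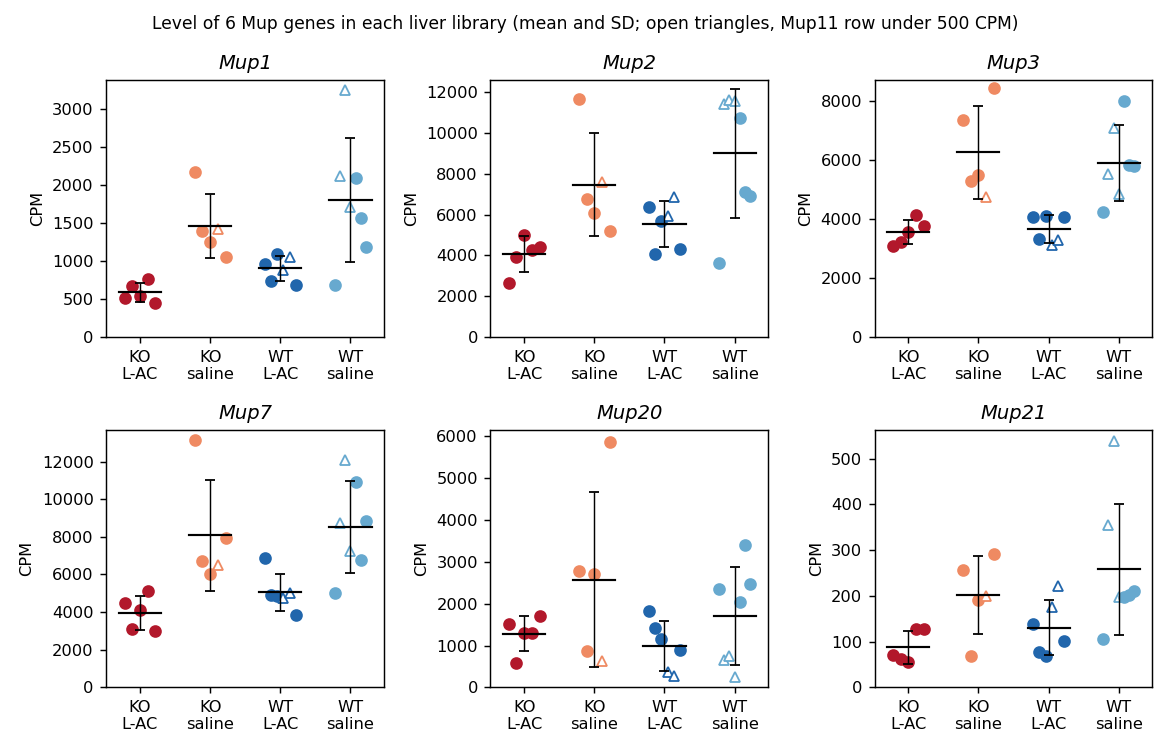
CPM of each member by group, each point 1 library, with the group mean and SD; open triangles are the 6 libraries with a Mup11 row under 500 CPM. The KO L-AC points of Mup1, Mup2, Mup3 and Mup7 lie below all KO saline points, while Mup20 spreads from 245 to 3398 CPM within WT saline.

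Mup7 is one of the near-identical central genes and had the highest level per base of the 6 in saline livers. It stood at 4470, 3094, 4102, 5099 and 3007 CPM in KO L-AC livers, against 13163, 6732, 6047, 6506 and 7922 CPM in KO saline livers. The KO groups did not overlap, and Mup7 fell at -1.03 on the log2 scale (SE 0.235, adjusted p = 0.00099). In WT it ran from 3851 to 6857 CPM on L-AC with a median of 4898, against 4994 to 12094 CPM on saline with a median of 8728. All but 2 of the 6 WT L-AC livers were below the lowest saline liver. The log2 fold change in WT was -0.75 (SE 0.207, adjusted p = 0.00404), and -0.62 without the low-Mup11 libraries (adjusted p = 0.0973).

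Mup2, whose row gathers exons of several central copies, followed the same course. It had 2654, 3916, 5004, 4276 and 4437 CPM in KO L-AC livers, against 11693, 6751, 6103, 7590 and 5223 CPM in KO saline livers. These groups did not overlap either, although the gap was narrow, between 5004 and 5223 CPM. Its log2 fold change in KO was -0.88 (SE 0.269, adjusted p = 0.00945). In WT it ran from 4067 to 6867 CPM on L-AC with a median of 5820, against 3635 to 11614 CPM on saline with a median of 10753. WT saline replicate 1 was below all 6 L-AC livers, and all 6 were below the saline median. The log2 fold change in WT was -0.70 (SE 0.237, adjusted p = 0.0163), and -0.48 without the low-Mup11 libraries (adjusted p = 0.237), 3 of which are the WT saline livers with the highest Mup2.

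Mup1, the member linked to systemic metabolism, fell in both genotypes. It stood at 517, 673, 547, 762 and 454 CPM in KO L-AC livers, against 2172, 1399, 1257, 1430 and 1058 CPM in KO saline livers. The KO groups did not overlap, and the log2 fold change was -1.31 (SE 0.28, adjusted p = 0.000539). In WT it ran from 686 to 1093 CPM on L-AC with a median of 927, against 692 to 3251 CPM on saline with a median of 1708. All 6 WT L-AC livers were below the saline median and 1 was below the lowest saline liver. In WT it fell 2-fold (SE 0.247 on the log2 scale, adjusted p = 0.00172), and the log2 fold change was -0.68 without the low-Mup11 libraries (adjusted p = 0.0823).

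Mup3, a divergent gene of the edge of the array whose protein is made in liver and carries a sugar chain, varied least between mice. It had 3101, 3243, 3551, 4153 and 3785 CPM in KO L-AC livers, against 7352, 5290, 5488, 4744 and 8466 CPM in KO saline livers. In WT it ran from 3123 to 4117 CPM on L-AC with a median of 3702, against 4229 to 8025 CPM on saline with a median of 5805. It was the member whose groups did not overlap in either genotype. The log2 fold change was -0.81 in KO (SE 0.171, adjusted p = 0.000462) and -0.69 in WT (SE 0.151, adjusted p = 0.000604). It passed without the low-Mup11 libraries too, at -0.90 in KO (adjusted p = 0.000796) and -0.62 in WT (adjusted p = 0.0209). Few of its read-length windows occur in another gene, so the division of reads among the central copies touches few of its counts.

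Mup21, its nearest relative at the edge of the array, was the rarest member. It had 70.2, 61, 54.9, 127 and 127 CPM in KO L-AC livers, against 256, 69.7, 192, 200 and 291 CPM in KO saline livers. KO saline replicate 2 fell within the L-AC range. Mup21 fell in KO at -1.20 (SE 0.409, adjusted p = 0.019). In WT it ran from 68.2 to 222 CPM on L-AC with a median of 120, against 105 to 538 CPM on saline with a median of 202. In WT it fell at -0.98 (SE 0.361, adjusted p = 0.0258), and -0.89 without the low-Mup11 libraries (adjusted p = 0.0818). Its call was the least secure: leaving out any 1 of WT saline replicates 2 and 3 or WT L-AC replicates 2, 3 and 6 took the adjusted p in WT to between 0.0513 and 0.0907, and leaving out KO saline replicate 5 or KO L-AC replicate 3 took that in KO to 0.0544 or 0.0513.

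Mup20, which encodes darcin, varied most between mice in 3 of the 4 groups, all but KO L-AC. It had 1519, 590, 1305, 1293 and 1703 CPM in KO L-AC livers, against 2794, 875, 2722, 635 and 5871 CPM in KO saline livers. In WT it ran from 283 to 1816 CPM on L-AC with a median of 1021, against 245 to 3398 CPM on saline with a median of 2053. The saline groups spanned 9.25 times from lowest to highest in KO and 13.9 times in WT. The log2 fold change was -1.01 in KO (SE 0.623, 95% interval -2.23 to 0.21, adjusted p = 0.186) and -0.79 in WT (SE 0.55, 95% interval -1.87 to 0.29, adjusted p = 0.233). The estimate leaned on single libraries: without KO saline replicate 5 it was -0.45 in KO, and without WT saline replicate 6 it was -0.53 in WT. In limma-voom it was -0.63 in KO. Without the low-Mup11 libraries it was -1.26 in KO (adjusted p = 0.0158) and -0.96 in WT (adjusted p = 0.0842). The KO library left out, KO saline replicate 4, had the lowest Mup20 of its group, 635 CPM. That cut was made on Mup11, whose level Mup20 follows, so the pass in KO is not independent of the cut. With age in weeks as a covariate the KO value shrank to -0.24 (adjusted p = 0.768). Across the 23 libraries the deviation of Mup20 from its group mean had a Pearson r of 0.55 with age, and 0.48 over the 17 libraries without the low-Mup11 ones, given as a description. For Mup2 the r with age was -0.45, and -0.47 over the 17, and for the other 4 members it lay between -0.12 and 0.26 over all 23.

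No member passed the test between genotypes. KO was compared with WT within each treatment, and edgeR called 0 of 6 members under L-AC and 0 of 6 under saline, where it called 2 of 14196 genes, 0.0141%, in each comparison; DESeq2 and limma-voom also called 0 members. At an unadjusted p under 0.05 there was 1 member under L-AC, Mup1, and 0 under saline. Of all 14196 genes tested, 643 were under that level under L-AC and 264 under saline. Mup1 had 454 to 762 CPM in KO L-AC livers, against 686 to 1093 CPM in WT L-AC livers, and 4 of the 5 KO livers were below the lowest WT liver. Its log2 fold change was -0.61 (95% interval -1.14 to -0.09, unadjusted p = 0.0307, adjusted p = 1), and it was -0.56 without the low-Mup11 libraries. The 95% interval under L-AC was -0.95 to 0.05 for Mup2, -0.36 to 0.28 for Mup3, -0.79 to 0.09 for Mup7, -0.78 to 1.53 for Mup20 and -1.34 to 0.19 for Mup21. A KO level lower by as much as L-AC lowered WT thus lies outside the interval for Mup3. It lies at the edge for Mup7 and Mup20, and within the interval for Mup1, Mup2 and Mup21. A KO level higher by that much lies well within the interval for Mup20, the widest of the 6.

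Under saline the log2 fold changes of KO against WT ran from -0.35 for Mup21 to 0.60 for Mup20. The intervals were -0.81 to 0.20 for Mup1, -0.75 to 0.22 for Mup2, -0.22 to 0.39 for Mup3, -0.50 to 0.35 for Mup7, -0.51 to 1.71 for Mup20 and -1.09 to 0.38 for Mup21. The signs of Mup1, Mup2, Mup7 and Mup21 turned without the low-Mup11 libraries, of which WT saline holds 3 and KO saline 1. The summed members averaged 13539 CPM in KO L-AC and 16275 CPM in WT L-AC, a log2 ratio of -0.27, and 26058 CPM in KO saline and 27191 CPM in WT saline, a log2 ratio of -0.06. Without the low-Mup11 libraries these ratios were -0.28 under L-AC and 0.12 under saline. The difference under saline was smaller than the SD of either group, and under L-AC 3 of 5 KO livers were below the lowest WT liver.

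The L-AC effect was estimated as larger in KO than in WT for each member, and the difference was within error. The interaction of genotype and L-AC was -0.31 for Mup1, -0.18 for Mup2, -0.13 for Mup3, -0.28 for Mup7, -0.22 for Mup20 and -0.22 for Mup21 on the log2 scale. The narrowest interval, that of Mup3, was -0.57 to 0.32, and the widest, that of Mup20, was -1.83 to 1.39. Without the low-Mup11 libraries the interaction was -0.64 for Mup1, -0.40 for Mup2, -0.29 for Mup3, -0.48 for Mup7, -0.30 for Mup20 and -0.31 for Mup21, and 0 members passed there either. The sign for Mup20 turned with age as a covariate, at 0.64, and in limma-voom, at 0.01. edgeR called 0 of 6 members and 0 of all genes tested, 0%. At an unadjusted p under 0.05 there were 0 members, beside 320 of all 14196 genes. DESeq2 and limma-voom also called 0 members. The 4 pairwise comparisons share groups of livers and are not independent of each other.

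The share of each member in the sum varied between libraries, most of all for Mup20. Mup2 made up 18.1 to 44.8% of the sum over the 23 libraries, Mup7 22.3 to 36.2%, Mup3 18.8 to 29.4%, Mup20 0.948 to 20.4%, Mup1 3.36 to 9.19% and Mup21 0.33 to 1.52%. The log2 ratio of each member to the other 5 was compared by an exact two-sided permutation test over livers in the 4 pairwise comparisons. Of these 24 tests 0 passed after Benjamini-Hochberg adjustment and 1 was under 0.05 before it. The tests are small: a member that shifted alone could pass the adjustment only in WT on L-AC against saline, where the smallest exact permutation p is 0.00117, while in the other 3 comparisons the smallest is 0.00253 to 0.00794. A lack of calls therefore does not show that shares stayed the same. The 1 test was Mup1 in KO against WT under L-AC, with a log2 ratio of -4.47 ± 0.32 in KO and -4.10 ± 0.20 in WT (SD, n = 5 and 6, exact permutation p = 0.0476, adjusted p = 0.798). On L-AC in KO the ratio of Mup1 differed by -0.40 (exact permutation p = 0.127, adjusted p = 0.798), and the other differences on L-AC lay between -0.23 and 0.26 in both genotypes. The spread of Mup20's ratio, an SD of 1.24 in KO saline and 1.61 in WT saline, would hide all but a large shift.

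Levels can be compared between members only per exon length, here CPM per kilobase of the row. In WT saline livers Mup7 stood first at 8239 ± 2361, then Mup3 at 6510 ± 1423, Mup2 at 2901 ± 1013, Mup20 at 1925 ± 1313, Mup1 at 1658 ± 745 and Mup21 at 342 ± 190 (SD, n = 7). Mup7 and Mup3 differed by less than the SD of Mup7, and Mup2, Mup20 and Mup1 by less than the SD of Mup2 or Mup20 from their neighbour. In KO L-AC livers Mup3 at 3928 ± 465 and Mup7 at 3828 ± 871 were level, with Mup20 at 1447 ± 476, Mup2 at 1308 ± 283, Mup1 at 542 ± 114 and Mup21 at 116 ± 47.5 below them (SD, n = 5). KO saline put Mup20 before Mup2, at 2911 ± 2367 and 2409 ± 811, and WT L-AC put Mup2 first of the pair, at 1786 ± 362 and 1114 ± 675. The length of the Mup2 row covers several copies, so that its level per kilobase is an average over them.

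The members also varied together and apart among mice of the same group. Over deviations from group means in the 23 libraries, Mup1 and Mup2 had a Pearson r of 0.84, Mup1 and Mup7 0.72, Mup3 and Mup7 0.63 and Mup3 and Mup21 0.40. Mup20 went its own way, with r of -0.45 with Mup2, 0.12 with Mup7 and 0.48 with Mup3. It followed instead the rows of Mup11, at 0.86, and Mup8, at 0.85, the pair that is low in the 6 libraries. These values describe libraries that share depth, scaling and, for Mup1, Mup2 and Mup7, reads.

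The other rows of the array were lower on L-AC too. On L-AC 11 of the 16 other rows fell in KO and 13 of 16 in WT, beside 23.6% and 26.7% of all genes tested. All 16 had negative log2 fold changes in both, with medians of -0.97 and -0.82. The rows are not separate observations. Those of Mup11, Mup16, Mup17, Mup19 and LOC100048884 lie almost wholly within Gm2083, and Mup10, Mup14 and Mup15 share exons with the Mup2 row. Mup12 fell to 2064 ± 427 CPM in KO L-AC, against 4412 ± 1552 CPM in KO saline, a log2 fold change of -1.10 (SE 0.277, adjusted p = 0.00241). Mup13 averaged 828 ± 172 CPM in KO L-AC and 1789 ± 496 CPM in KO saline (-1.11, SE 0.25, adjusted p = 0.000874). Mup19 had 510 ± 57.3 CPM in KO L-AC against 1028 ± 416 CPM in KO saline, and 597 ± 140 CPM in WT L-AC against 1148 ± 325 CPM in WT saline. Its log2 fold change was -1.01 in KO and -0.94 in WT (adjusted p = 0.00108 and 0.000589). Mup9 and Mup16 fell in both genotypes as well, by 1.11 and 1.10 in KO and by 0.95 and 1.08 in WT on the log2 scale. Mup10 and Mup15, whose exons partly belong to the Mup2 row as well, fell in both too, at -0.88 and -1.05 in KO and -0.68 and -0.79 in WT.

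Mup17 was at -1.08 in KO and -0.84 in WT and passed in both, as did Gm2083 at -0.92 and -0.79 and LOC100048884, which RefSeq lists as Mup18, at -1.03 and -0.81. Much of the exon length of these rows lies within Gm2083, so they are not separate observations. Mup14 fell in KO at -0.90 (adjusted p = 0.00811) and did not pass in WT at -0.49 (adjusted p = 0.0814). Mup4 and Mup5, known mainly from glands of the head, and Mup6 had log2 fold changes of -0.95, -1.01 and -0.95 in WT, where they passed, and of -0.87, -0.83 and -0.74 in KO, where they did not. Mup8 and Mup11, the rows that set the 6 libraries apart, passed in neither genotype, at -0.88 and -0.74 in KO and -0.76 and -0.61 in WT. In KO against WT 0 of the 16 rows were called by edgeR under either treatment. At an unadjusted p under 0.05 there were 2 rows under L-AC and 0 under saline, beside 643 and 264 of all 14196 genes.

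**Figure D4:**
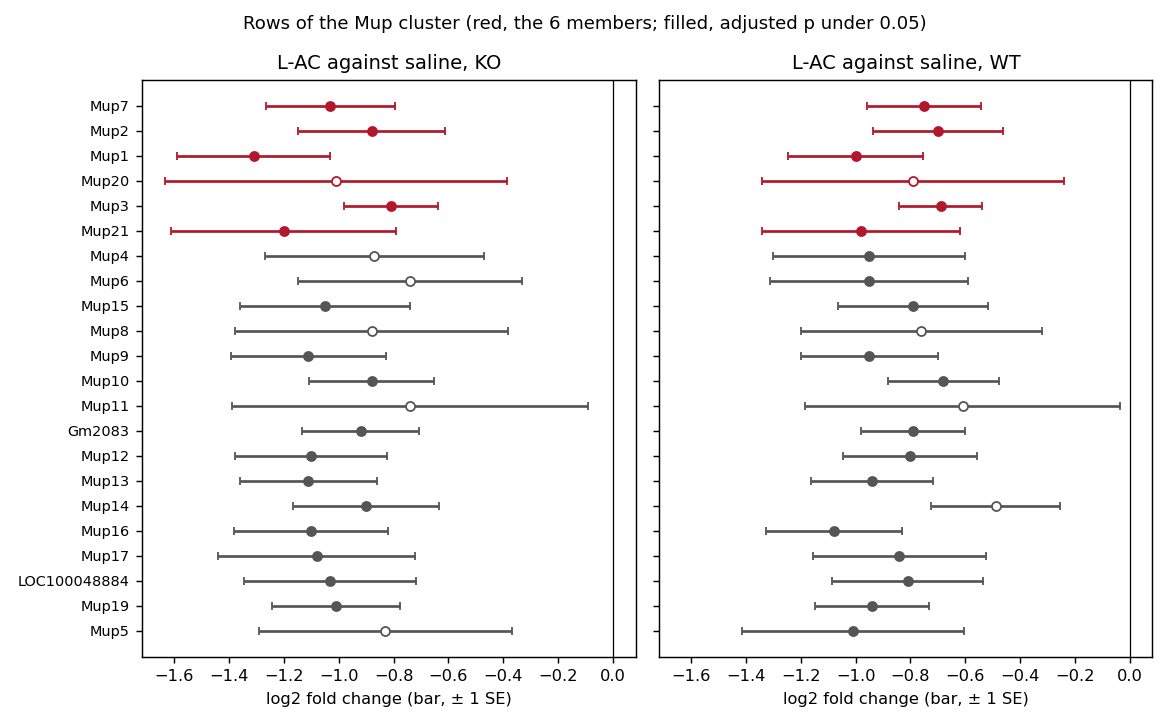
Log2 fold change of L-AC against saline for the 22 rows of the array in KO (left) and WT (right), with bars of 1 SE; red marks the 6 members and filled points passed an adjusted p under 0.05. All points lie left of 0 in both genotypes, and Mup20, Mup8 and Mup11 have the longest bars.

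Genes of growth hormone signalling, the main known driver of Mup transcription, were followed as a list of 12. On L-AC 5 of 12 fell in KO and 6 of 12 in WT at an adjusted p under 0.05, beside 23.6% and 26.7% of all genes tested. In either genotype 0 rose, beside 25.2% in KO and 26.6% in WT of all genes. The list's median log2 fold change was -0.29 in KO and -0.45 in WT. Ghr, the growth hormone receptor, had 183 ± 47.5 CPM in KO L-AC against 496 ± 24.6 CPM in KO saline, and 189 ± 41.4 CPM in WT L-AC against 470 ± 87 CPM in WT saline. Its log2 fold change was -1.44 in KO (SE 0.174, adjusted p = 6.99e-07) and -1.31 in WT (SE 0.154, adjusted p = 3.67e-07). Stat5b, the transcription factor that carries the signal to male-biased genes, fell by 0.79 in KO and by 0.74 in WT on the log2 scale (adjusted p = 6.90e-07 and 2.41e-07). Jak2, the kinase at the receptor, fell by 0.53 and 0.52, and Igfals, the acid-labile subunit of circulating IGF complexes, by 1.98 and 1.73. Igf1, the hormone itself, was at -0.16 in KO (adjusted p = 0.462) and 0.01 in WT (adjusted p = 0.964), and Stat5a at -0.18 and -0.13 did not pass either. Socs2, an inhibitor that STAT5B induces, was at -0.17 in KO and 0.21 in WT with SEs of 0.694 and 0.598. Bcl6, a repressor of female-biased genes, fell in both, at -1.17 and -1.45 (adjusted p = 0.0455 and 0.00632).

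Among 18 other male-biased liver genes, 11 fell and 1 rose in KO, and 14 fell and 1 rose in WT, with medians of -1.07 and -1.03. Of all genes tested, 23.6% fell and 25.2% rose in KO, and 26.7% fell and 26.6% rose in WT. Keg1, a glycine acyltransferase-like gene of kidney and liver, averaged 2.54 ± 1.05 CPM in KO L-AC livers, against 53.9 ± 24.3 CPM in KO saline livers, a log2 fold change of -4.42 (SE 0.438, adjusted p = 4.43e-08), and of -4.62 in WT. Hsd3b5, a steroid reductase of male liver, fell as well, with log2 fold changes of -3.92 in KO and -4.48 in WT. Cyp7b1, an oxysterol hydroxylase, and Cyp2d9, a steroid hydroxylase, fell by 1.19 and 1.16 in KO and by 1.75 and 0.74 in WT. Elovl3, a fatty acid elongase, was the one that rose, at 1.32 in KO (adjusted p = 0.00147) and 0.79 in WT (adjusted p = 0.0176). The medians of the 6 members, -1.02 in KO and -0.77 in WT, lay close to that of the list in KO and above it in WT.

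Most female-biased genes were not called. Of 15 tested, 3 fell and 0 rose in KO and 4 fell and 2 rose in WT. Of all genes tested, 23.6% fell and 25.2% rose in KO, and 26.7% fell and 26.6% rose in WT. The falling counts of the list were near those shares. Its medians were -0.81 in KO and -0.80 in WT, beside -1.02 and -0.77 for the 6 members. Cyp2c69 and Cyp2c40, hydroxylases of female liver, fell by 1.22 and 1.03 in KO and by 1.63 and 1.64 in WT. Fmo2, a monooxygenase, rose in WT at 0.80 (adjusted p = 0.00388) and was at 0.36 in KO (adjusted p = 0.24). Cux2, a female-biased transcription factor, was at -0.03 in KO and 0.57 in WT (adjusted p = 0.945 and 0.0499).

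Secreted proteins of the hepatocyte gave a second standard for the members. Of 18 abundant plasma protein genes, 11 fell in KO and 12 in WT and 0 rose, with medians of -0.69 and -0.62. Among all genes tested, 23.6% fell and 25.2% rose in KO, and 26.7% fell and 26.6% rose in WT. The Mup medians are set beside those of this list. Serpina1a, one of the mouse alpha-1 antitrypsin genes, had 3645 ± 585 CPM in KO L-AC against 7494 ± 277 CPM in KO saline, and 3646 ± 422 CPM in WT L-AC against 7161 ± 681 CPM in WT saline. Ahsg, which encodes fetuin-A, fell by 1.50 in KO on the log2 scale. The Serpina1 genes are near-identical copies too, and the same limit on single genes holds for them. Both Mup medians stood lower than the medians of the plasma protein list, a difference that was not tested.

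Other lipocalins went both ways. Of 11 tested, 4 fell and 4 rose in KO, and 4 fell and 1 rose in WT. The shares of all genes tested were 23.6% falling and 25.2% rising in KO, and 26.7% and 26.6% in WT. Those that fell in both were Rbp4, the retinol carrier, Ambp, which encodes alpha-1 microglobulin, Apom, the sphingosine-1-phosphate carrier, and C8g, a complement subunit. Rbp4 had 2185 ± 249 CPM in KO L-AC against 3521 ± 235 CPM in KO saline, a log2 fold change of -0.69 (SE 0.0938, adjusted p = 3.33e-06), and it fell by 0.53 in WT. Apom fell by 0.92 in KO and by 0.68 in WT. Orm2, an acute phase orosomucoid, had 83.1 ± 39.8 CPM in KO L-AC against 12.9 ± 8.02 CPM in KO saline and rose at 2.70 (SE 0.418, adjusted p = 1.62e-05); in WT it rose at 0.95 (adjusted p = 0.0236). Lcn2, the siderophore-binding lipocalin, had 65.6, 586, 9.46, 49.8 and 7.62 CPM in KO L-AC livers, against 25.9, 15.3, 4.15, 2.62 and 14.3 CPM in KO saline livers. The groups overlapped and 1 L-AC liver, replicate 2, was far above the rest. Lcn2 was called at 3.53 in KO (SE 0.924, adjusted p = 0.00313), and at 1.42 without that liver it no longer passed (adjusted p = 0.0849). It was at 0.15 in WT (adjusted p = 0.879), and the difference between genotypes did not pass in the interaction, in which 0 genes were called.

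**Figure D5:**
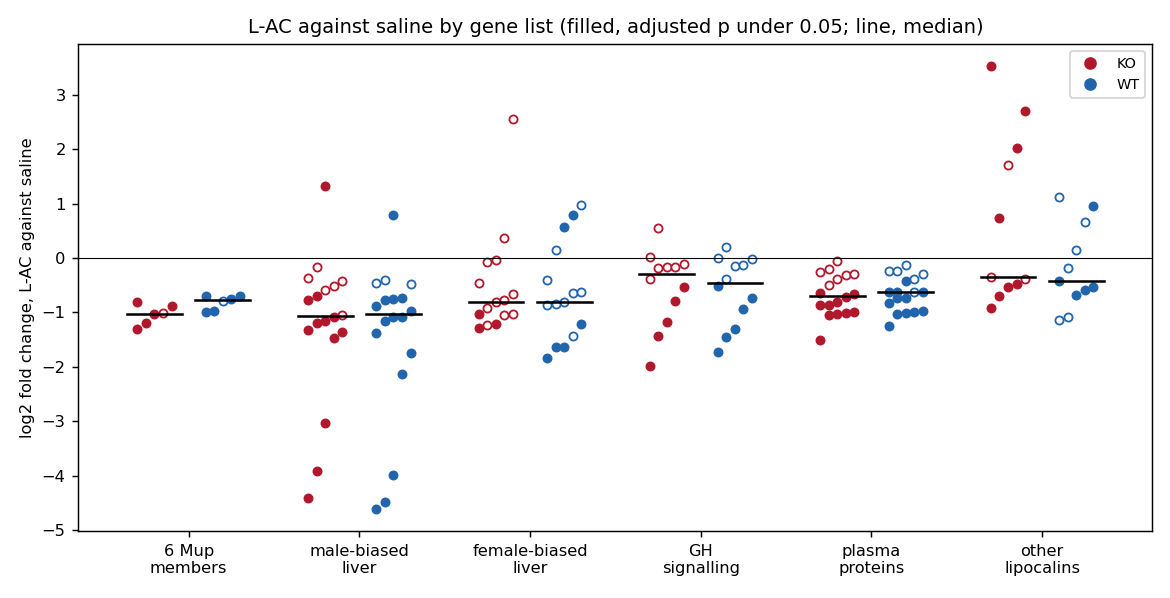
Log2 fold change of L-AC against saline for the 6 members and for 5 gene lists, KO (red) left of WT (blue) within each list; filled points passed an adjusted p under 0.05 and the line is the median. The members lie close together between -1.31 and -0.69, male-biased genes reach -4.62 in WT, and the lipocalins spread on both sides of 0.

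Hormone receptors and liver transcription factors known to act on Mup genes or on liver identity were followed as a list of 19. Of these, 9 fell and 1 rose in KO and 7 fell and 2 rose in WT. The counts of this paragraph stand beside 23.6% of all genes falling and 25.2% rising in KO, and 26.7% and 26.6% in WT. Cebpa, a factor of mature hepatocytes, had 196 ± 41.3 CPM in KO L-AC against 520 ± 55.3 CPM in KO saline (log2 fold change -1.41, adjusted p = 8.74e-07) and fell by 1.59 in WT. Nr3c1, the glucocorticoid receptor, fell by 0.61 in KO and by 0.53 in WT, Thrb, a thyroid hormone receptor, by 0.63 and 0.45, and Foxa2, a pioneer factor, by 1.16 and 1.10. Genes of the signal peptide and translocon machinery, through which secreted proteins enter the endoplasmic reticulum, went both ways, in KO at counts near the shares of all genes. Of 22, 4 fell and 5 rose in KO and 10 fell and 4 rose in WT, with Sec61b falling by 0.62 in KO and by 0.90 in WT and Srpr rising at 0.55 and 0.52. Of the markers of other liver cells, 1 of 5 Kupffer cell genes, Cd68, rose in both genotypes at 2.27 in KO and 1.50 in WT, while 1 fell in KO and 2 in WT. In KO L-AC Cd68 stood at 66 CPM in replicate 3 and at 7.29 to 17.9 CPM in the other 4 livers; without replicate 3 its log2 fold change was 1.30 (adjusted p = 0.00186). Of 6 endothelial markers 2 fell in KO and 1 in WT, and Spp1 was the 1 of 5 cholangiocyte markers that fell, in both genotypes. Of the 3 lymphocyte markers tested, all under 1 CPM in each group mean, 1 rose and 1 fell in KO and 1 rose and 2 fell in WT. Of 6 stellate markers 1 rose in KO and 3 in WT. Without TMM scaling the stellate markers summed to 161 to 227 CPM in KO L-AC against 81.4 to 212 CPM in KO saline, and to 186 to 245 CPM in WT L-AC against 109 to 188 CPM in WT saline. The marker lists are too short to set their counts apart from the shares of all genes. The part of these cell types in the fall of the members was not tested.

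Genes whose level followed the summed members most closely from mouse to mouse were ranked by Pearson r of deviations from group means over the 23 libraries, at a mean of at least 1 CPM. The first 8 were Jade3 at 0.80, Sclt1 at 0.80, Arrdc3 at 0.78, Peli1 at 0.77, Tcf7l2 at 0.77, and 4921524J17Rik, Plxna2 and Nr2f2 at 0.74. Without the 6 low-Mup11 libraries their r lay between 0.71, for 4921524J17Rik, and 0.90, for Sclt1. They come from 8 chromosomes, none of them chromosome 4, and the ranking is a description over libraries that share depth and scaling.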

How the data were processed

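The authors deposited raw counts per gene for each library, made with featureCounts 1.4.4 against UCSC gene models of mm10, per the file headers. Only primary alignments entered, without regard to strand, and overlapping genes each received the read, per the file headers. The aligner was STAR 2.4.0, per the submitters' processing notes. Groups came from the labels, replicates are separate mice numbered in accession order, and no batch or date is given. Between replicates, over 56 pairs, the chi-square of the counts was at least 44.1 per degree of freedom, so no library is a repeat within sampling noise.

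Genes were kept by filterByExpr (minimum count 10, minimum total 15), which left 14196. After TMM scaling, edgeR 4.0.16 (R 4.3.3) fitted all 23 libraries in 4 group means for its quasi-likelihood test, with Benjamini-Hochberg adjustment over all of them, a threshold of 0.05 and two-sided p-values. SE is the log2 fold change divided by the square root of F. Intervals are at 95% by the normal approximation, which makes them slightly narrower than the test itself would. The member ratios used counts plus 0.5. DESeq2 1.42.0 and limma 3.58.1 were alternatives. Tested on simulated counts for 14196 genes, the fit recovered 82% of 2-fold changes on L-AC in KO, 90% in WT, and 88% in each comparison of KO with WT. For 1.5-fold changes it recovered 48% on L-AC in KO, 74% in WT, and 52% in each comparison of KO with WT. The simulation changed few genes, none of them at low counts, whereas L-AC changed much of the transcriptome here. Each rate rests on those few changed genes, drawn at random, and is not a rate for the members. Mup20 had an SE on L-AC of 0.623 in KO and 0.55 in WT. Sequence windows came from GENCODE M21 transcripts and promoters from RefSeq.

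The members, the 14 gene lists and the tests were chosen with earlier results of these data known. Named genes are the 6 members, all other rows of the array, up to 4 called genes per list and comparison with the smallest p, and the 8 genes most like the summed members. Others (Bcl6, Igf1, Stat5a, Socs2, Elovl3, Lcn2 and Cux2) were named after their values were seen, as were the setting without the low-Mup11 libraries and that leaving out single KO libraries for Lcn2 and Cd68.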

Additional observations from a re-analysis of the deposited data

Results flagged for a closer look

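Dixon's test for a sample far from the rest of its group was run on 28 combinations of a group with a member or with the sum, and 1 was past the 95% limit, where chance gives about 1 in 20. It was Mup7 in KO saline replicate 1, at 13163 CPM, while the other 4 KO saline livers had 6047 to 7922 CPM. The same library had the highest summed level of the 23, 37431 CPM, and the highest Mup1 and Mup2 of its group, at 2172 and 11693 CPM. Leaving it out took the log2 fold change of Mup7 on L-AC in KO to -0.78 and that of the sum to -0.78, and Mup7 still passed.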

How the results depend on the processing

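The number of members called held at 5 in each genotype on L-AC, and at 0 in KO against WT and in the interaction, under DESeq2, DESeq2's size factors, limma-voom, other filters, a fit of the compared groups alone, age as a covariate and library sizes without the Mup rows. Without the 6 libraries with a low Mup11 row it was 1 in WT, in a fit of fewer livers, and 6 in KO. The KO library left out there had the lowest Mup20 of KO saline, so the added call of Mup20 is not independent of the cut. Leaving out 1 library at a time gave 4 to 5 in each genotype and 0 elsewhere. Summed log2 ratios then ran from -1.01 to -0.78 on L-AC in KO, from -0.84 to -0.67 on L-AC in WT, from -0.32 to -0.19 for KO against WT under L-AC and from -0.23 to 0.01 under saline. In no setting did a member pass the test of its share of the sum, a test too small in most comparisons to call 1 member alone. The interaction needs all 4 groups, so a fit of the compared groups alone gave no value for it. No L-AC fold change of a member turned its sign under any setting.

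Signs of values that had not passed turned under some settings. In KO against WT without the low-Mup11 libraries, Mup1 was 0.08, Mup2 0.07, Mup7 0.10 and Mup21 0.18 under saline, and Mup20 was -0.04 under L-AC. With age as a covariate Mup3 was 0.02 under L-AC, and Mup20's interaction was 0.64, or 0.01 in limma-voom. With 1 library left out, Mup3 ran from -0.10 to 0.01 under L-AC and from -0.05 to 0.17 under saline, Mup7 from -0.32 to 0.03 under saline, and the interaction from -0.28 to 0.04 for Mup2, -0.21 to 0.01 for Mup3, -0.48 to 0.34 for Mup20 and -0.50 to 0.00 for Mup21. The cause was not tested in any of these. No paired analysis was possible because replicate numbers follow accession order and pair no animals.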

Other observations

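The split of the libraries by the Mup11 row was accompanied by other genes, listed here as values chosen after they were seen. Over deviations from group means in 23 libraries, F3, which encodes tissue factor and lies on chromosome 3, had a Pearson r of -0.88 with the Mup11 row, and -0.49 over the 17 libraries without the low ones. Gng10, a G protein subunit gene on chromosome 4 near the array at 59035156 to 59041899, had -0.67 with Mup11 and -0.76 with Mup20, and -0.58 and -0.70 over the 17. Of the 8 genes outside the array with the highest positive r with Mup11, 6 lie on chromosome 4: Ythdf2, Rad23b, Ptprd, Csf3r, Ccdc163 and Tmem245. Their r was between 0.66 and 0.74, and between 0.35 and 0.47 over the 17 libraries. The share of chromosome 4 among all genes ranked is not given, and a reason for this count was not tested. For Mup20 the list was led by Ncoa5 at 0.79 and Zfp830 at 0.75, which were 0.59 and 0.58 over the 17.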
